A study of Mus musculus with 6 samples.

Results

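The genes described here are 37 genes of DNA replication and S phase, read in primary mouse bone marrow macrophages on their way to becoming osteoclasts. They were chosen by symbol as a module of replication genes, and each matched 1 of the 26699 genes in the deposited count files. The tested libraries, called cKO, came from LysmCre-Slc11a2flox/flox mice, in which Cre expressed from the lysozyme M locus deletes the floxed Slc11a2 alleles in myeloid cells. Slc11a2 encodes DMT1, a membrane carrier of ferrous iron. The control libraries came from Slc11a2flox/flox mice, which carry the same floxed alleles and no Cre. Cre and the deletion thus come together, so their effects cannot be told apart, and cells outside the myeloid lineage keep the gene. Per the labels' protocols, all mice were 8 weeks old, and marrow cells were first grown in 10 ng/mL M-CSF, on which macrophages depend. The cells then received 30 ng/mL M-CSF and 50 ng/mL RANKL, the ligand that commits them to the osteoclast fate, with 48 hours of RANKL in all 6 libraries. Each genotype had 3 libraries of polyadenylated RNA. No label says that each came from its own mouse or culture, so the p-values reflect library-to-library spread, part or all of which may be technical.

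Before S phase, the origin recognition complex together with CDC6 and CDT1 loads the MCM ring onto DNA, and CDC45 and the GINS complex later turn that ring into the active helicase. Primase and polymerase alpha start each strand, polymerases epsilon and delta extend it, and the clamp PCNA, loaded by replication factor C, holds the polymerases on the template. Several of these enzymes need iron: the small subunit of ribonucleotide reductase, RRM2, holds a diiron centre, and work in yeast and human cells places iron-sulfur clusters in the large primase subunit and in the catalytic subunits of polymerases delta and epsilon. Osteoclast precursors divide under M-CSF and leave the cell cycle as they mature, and transcription of most replication genes is driven by E2F factors at the start of S phase.

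The promoters of 4 members are shown, chosen by p-value or by role. Uhrf1 was the only member that passed the test, and Mcm5 had the next smallest p-value. Rrm1 and Rrm2 encode the subunits of the iron-dependent ribonucleotide reductase. Each promoter is the 250 bases before an annotated start, written on the strand of the gene. The starts are from RefSeq on GRCm38.p6, the build also known as mm10. Capitals mark the E2F core motif, TTCCCGC or TTGGCGC on either strand (GCGGGAA or GCGCCAA when read on the strand shown).
Uhrf1, chr17:56303087-56303336, + strand: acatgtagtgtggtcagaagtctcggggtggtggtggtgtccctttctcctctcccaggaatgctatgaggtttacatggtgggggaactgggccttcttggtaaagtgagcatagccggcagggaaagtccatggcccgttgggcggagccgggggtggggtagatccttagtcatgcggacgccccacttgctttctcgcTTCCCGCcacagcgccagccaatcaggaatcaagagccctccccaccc
Mcm5, chr8:75109259-75109508, + strand: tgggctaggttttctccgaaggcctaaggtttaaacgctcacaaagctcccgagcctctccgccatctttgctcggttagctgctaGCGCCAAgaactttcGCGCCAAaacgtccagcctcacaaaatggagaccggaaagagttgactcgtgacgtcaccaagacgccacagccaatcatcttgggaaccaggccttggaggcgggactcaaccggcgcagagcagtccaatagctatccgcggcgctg
Rrm1, chr7:102441445-102441694, + strand: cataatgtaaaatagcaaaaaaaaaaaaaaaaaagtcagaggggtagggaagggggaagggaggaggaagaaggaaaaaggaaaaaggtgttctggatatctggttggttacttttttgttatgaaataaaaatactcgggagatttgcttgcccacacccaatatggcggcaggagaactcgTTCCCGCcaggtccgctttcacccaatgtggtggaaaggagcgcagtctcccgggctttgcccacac
Rrm2, chr12:24708004-24708253, + strand: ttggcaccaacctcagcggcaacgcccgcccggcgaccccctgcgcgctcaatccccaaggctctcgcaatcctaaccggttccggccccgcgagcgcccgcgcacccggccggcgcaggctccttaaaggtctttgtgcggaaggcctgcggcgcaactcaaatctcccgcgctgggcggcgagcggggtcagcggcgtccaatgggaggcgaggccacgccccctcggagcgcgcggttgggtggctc

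The E2F core stood 48 bases before the start of Uhrf1 and 67 before that of Rrm1. The nearer of 2 copies stood 149 bases before the RefSeq start of Mcm5. That start lies before the one in the count files, at 75109569, and the bases just after it matched no GENCODE M21 transcript of Mcm5. The letters of the E2F core were not in the Rrm2 window, nor in the window of a second annotated start of Uhrf1. Of the 37 members, 30 had at least 1 promoter window in the RefSeq table, and 11 of these 30 (36.7%) held the E2F core, against 6.45% of all 27025 genes in the table. The CCAAT box, the motif bound by NF-Y, searched as CCAAT on either strand, was in 18 of the 30 members (60%), against 37.5% of all genes and 19 of 25 mitosis genes (76%). The E2F core was in 3 of those 25 mitosis genes (12%). The 7 members with no window in the table were Mcm4, Gins1, Gins2, Gins4, Prim2, Pole and Rfc2. A match is a description of the letters only, and the windows were not tested for binding.

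Few differences in replication transcripts were called between cKO and control cells, and most estimates were positive. Whether the levels were equal was not tested. Of the 37 members, 1 rose in cKO cells, Uhrf1, and 0 fell (edgeR's quasi-likelihood test, Benjamini-Hochberg adjusted p below 0.05). That is 2.7% of the members, against 2.42% of all 16843 genes tested, and 1.36% of all genes were called higher in cKO cells. At an unadjusted p below 0.05 there were 6 members, 16.2% of them and all higher in cKO cells, against 17.2% of all genes in either direction, 8.38% higher and 8.79% lower in cKO cells. DESeq2 called the same single member. In RNA from whole cultures, more cycling cells and more RNA per cell cannot be told apart. The member log2 fold changes ran from -0.35 for Rfc4 to 0.63 for Gins2, with a median of 0.10, where the median over all genes tested was 0.001. Positive values were held by 30 of the 37 members (81.1%), against 50.4% of all genes. The median size of a member's change, in either direction, was 0.13 on the log2 scale, and that of all genes was 0.15.

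The 95% intervals give the precision of these estimates. For 35 of the 37 members the interval lay within 2-fold in both directions, the exceptions being Gins1 and Gins2, whose upper bounds were 1.13 and 1.21 on the log2 scale. For 30 members the estimated change was under 20%. Member counts per library ran from 37 reads, for Gins1 in control replicate 1, to 7375 reads, for Pcna in cKO replicate 2, so Gins1 was the least precisely measured. The median spread of log2 levels within a genotype was 0.13 (SD) for members.

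**Figure D1:**
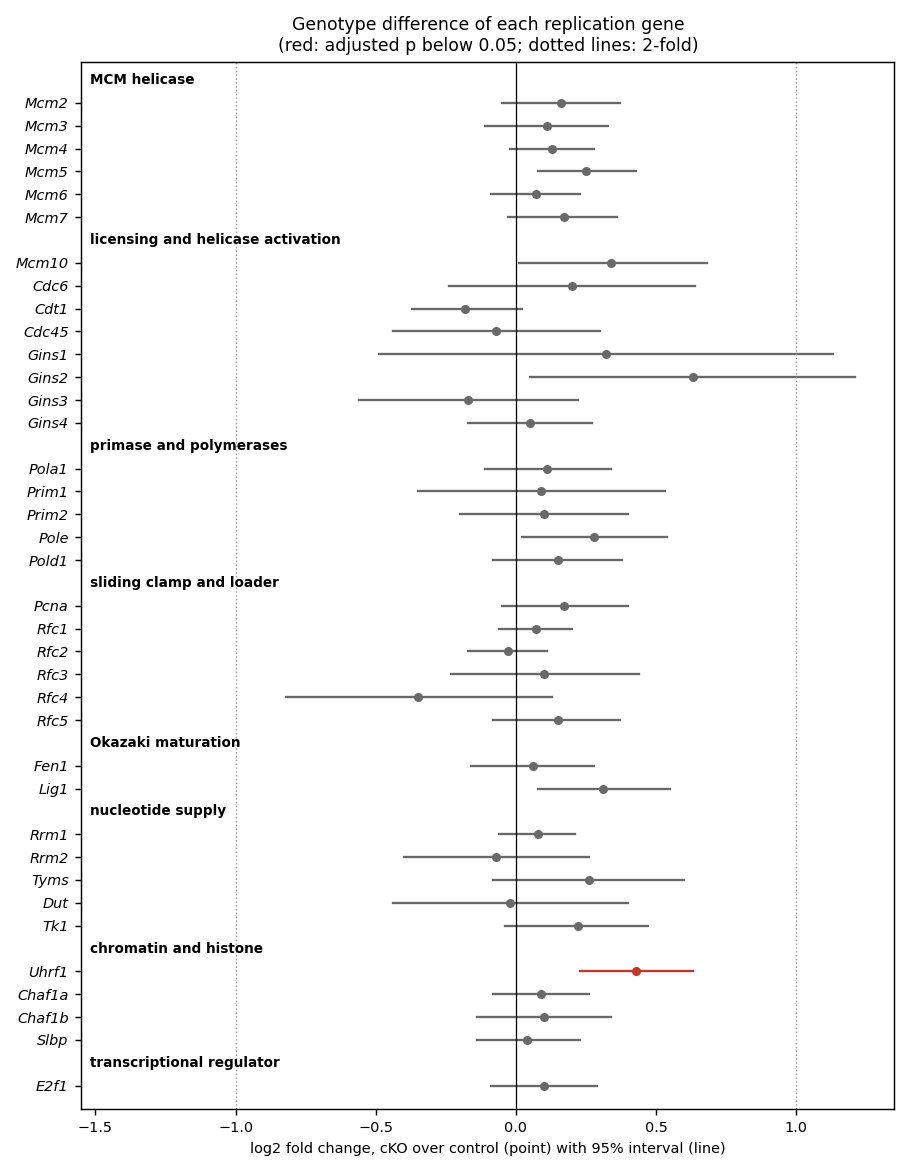
Log2 fold change of each of the 37 members, cKO over control (points), with its 95% interval from the edgeR fit (lines), grouped by role; dotted lines mark 2-fold. The interval of Uhrf1, in red, runs from 0.23 to 0.63, and those of Gins1 and Gins2 reach beyond 2-fold.

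Uhrf1 encodes the protein that recognises hemimethylated DNA behind the fork and recruits the maintenance DNA methyltransferase. Uhrf1 (ENSMUSG00000001228, chromosome 17, 56303321 to 56323486 on mm10) had 23.9, 23.7 and 24.1 CPM in cKO replicates 1 to 3, against 16.6, 19.9 and 16.8 CPM in control replicates 1 to 3. CPM is the read count per 1000000 reads after TMM scaling of the libraries. The groups did not overlap, and the cKO libraries lay closer together than the control libraries. The log2 fold change of Uhrf1 was 0.43 with a standard error of 0.09 (edgeR adjusted p = 0.0361), or 34.6% higher. The size of the difference held when any library was left out, at 0.39 to 0.51, but the call did not. It held without control replicate 2 (edgeR adjusted p = 0.0383) and was lost without control replicate 1 (0.133) or 3 (0.142) and without cKO replicate 1 (0.173), 2 (0.073) or 3 (0.0519).

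Within the MCM ring, all 6 subunits had positive log2 fold changes, from 0.07 for Mcm6 to 0.25 for Mcm5, and none passed. Mcm5 had 28.6, 29.6 and 26.0 CPM in cKO replicates 1 to 3, against 23.2, 24.4 and 23.1 CPM in control replicates 1 to 3. The groups did not overlap, yet the log2 fold change of 0.25 ± 0.08 (SE) did not pass (edgeR adjusted p = 0.134). Mcm4 also separated the genotypes, at 38.9, 39.3 and 37.1 CPM in cKO and 33.3, 36.3 and 35.6 CPM in control replicates 1 to 3, a log2 fold change of 0.13 ± 0.07 (SE, edgeR adjusted p = 0.366). Mcm2, Mcm3, Mcm6 and Mcm7 overlapped between genotypes, and in each of the 4 the highest library was cKO replicate 2. Per kilobase of the longest coding transcript in GENCODE M21, Mcm6 was the highest subunit, at 15.7 CPM in cKO and 14.9 CPM in control cells. Mcm5 and Mcm2 were lowest and close together, at 8.31 ± 0.547 and 8.32 ± 0.91 CPM in cKO cells (SD). In control cells they were at 6.97 ± 0.224 and 7.45 ± 0.544 CPM (SD). By FPKM, the authors' own level per kilobase, Mcm2 was lowest, at 3.51 in cKO and 3.11 in control cells. Mcm5 was then at 6.11 in cKO and 5.09 in control cells.

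The licensing and helicase activation genes were mixed, with 5 positive and 3 negative log2 fold changes among 8 genes and none called. Mcm10, which helps to activate the loaded helicase, had 6.01, 7.34 and 7.34 CPM in cKO replicates 1 to 3, against 4.80, 5.55 and 5.95 CPM in control replicates 1 to 3. Mcm10 separated the genotypes narrowly, and its log2 fold change of 0.34 ± 0.15 (SE) did not pass (edgeR adjusted p = 0.275). Cdt1, the MCM loading factor, had 22.8, 24.5 and 27.6 CPM in cKO and 26.9, 29.9 and 28.0 CPM in control replicates 1 to 3. Its groups overlapped, and its log2 fold change of -0.18 ± 0.09 (SE, edgeR adjusted p = 0.334) had the smallest p-value among the 7 negative members. Cdc6, the other loading factor, stood at 0.20 ± 0.20, and Cdc45 at -0.07 ± 0.17 (log2 fold change ± SE).

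The GINS subunits, which work as a complex of 4 proteins, had 3 positive and 1 negative log2 fold changes, and none passed. Gins2 had 10.4, 7.91 and 17.3 CPM in cKO replicates 1 to 3, against 7.69, 7.99 and 7.38 CPM in control replicates 1 to 3. The level in cKO replicate 3 stood far above the other 5 libraries, and cKO replicate 2 lay inside the control range. The log2 fold change of Gins2 was 0.63 ± 0.25 (SE, edgeR adjusted p = 0.256), and 0.26 without cKO replicate 3. Gins2 overlaps Gse1 on the opposite strand over 2758 bases. Gse1 had 78.8, 80.4 and 78.9 CPM in cKO replicates 1 to 3, against 69.3, 72.9 and 69.9 CPM in control replicates 1 to 3. These values count the whole of Gse1 and cannot show the reads of the shared stretch. Whether such reads entered the count of Gins2 was not tested. Gins1, Gins3 and Gins4 had log2 fold changes of 0.32 ± 0.37, -0.17 ± 0.18 and 0.05 ± 0.10 (SE), all with overlapping groups.

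**Figure D2:**
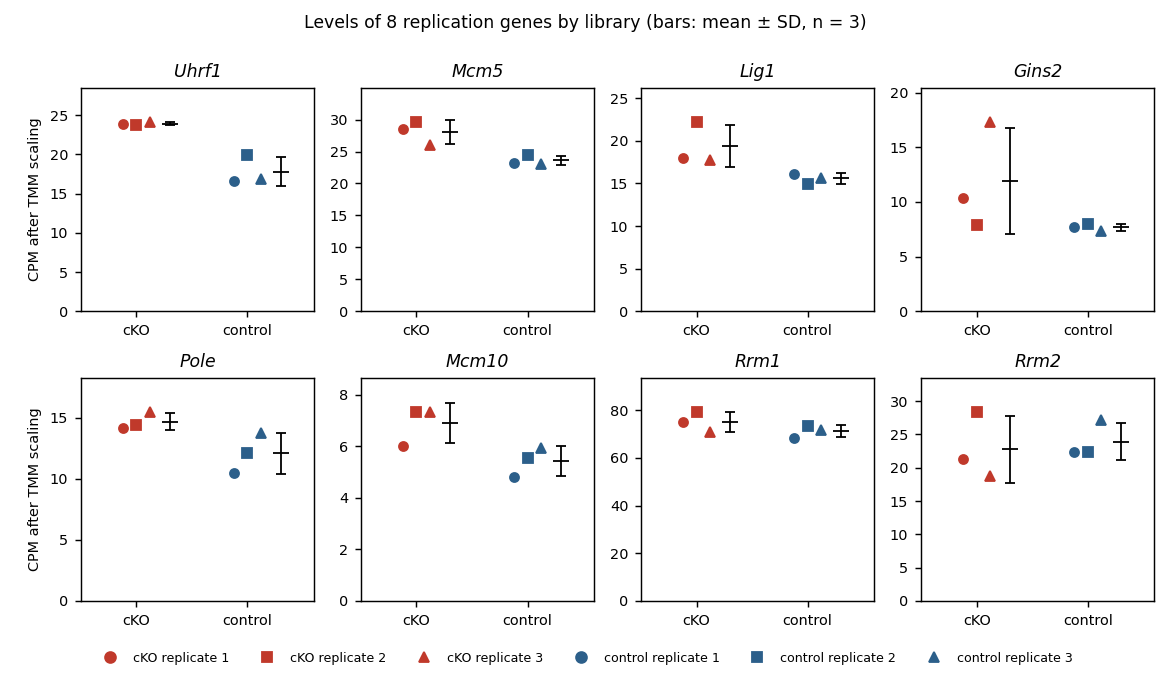
CPM after TMM scaling of 8 members in each library (symbols; cKO left, control right), with the mean ± SD of 3 libraries beside them; the vertical axes start at 0. The 6 members with an unadjusted p below 0.05 are joined by Rrm1 and Rrm2; the single high point of Gins2 is cKO replicate 3, at 17.3 CPM.

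The primase and polymerase genes all had small positive values, and none of the 5 passed. Prim2, the primase subunit that holds an iron-sulfur cluster, had 11.6, 11.1 and 10.9 CPM in cKO replicates 1 to 3, against 10.7, 12.2 and 8.47 CPM in control replicates 1 to 3. The cKO values of Prim2 lay within the control range, with a log2 fold change of 0.10 ± 0.14 (SE) and a 95% interval of -0.20 to 0.40. Pole, the catalytic subunit of the leading-strand polymerase, had 14.2, 14.4 and 15.5 CPM in cKO and 10.5, 12.1 and 13.8 CPM in control replicates 1 to 3. Pole separated the genotypes but did not pass, at 0.28 ± 0.12 (SE, edgeR adjusted p = 0.262). Pold1, the catalytic subunit of polymerase delta, was at 0.15 ± 0.10, Pola1, that of polymerase alpha, at 0.11 ± 0.10, and Prim1, the catalytic primase subunit, at 0.09 ± 0.20 (log2 fold change ± SE).

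Neither subunit of ribonucleotide reductase differed detectably between the genotypes. Rrm1, the large subunit with the active site, had 74.9, 79.4 and 71.1 CPM in cKO replicates 1 to 3, against 68.4, 73.3 and 71.7 CPM in control replicates 1 to 3. The groups overlapped, and the log2 fold change of Rrm1 was 0.08 ± 0.06 (SE), with a 95% interval of -0.06 to 0.21 (edgeR adjusted p = 0.575). Rrm2, the diiron subunit, had 21.3, 28.4 and 18.7 CPM in cKO and 22.4, 22.3 and 27.1 CPM in control replicates 1 to 3. Its highest and lowest libraries were both cKO, and its log2 fold change of -0.07 ± 0.15 (SE) had a 95% interval of -0.40 to 0.26 (edgeR adjusted p = 0.852). The ratio of Rrm2 to Rrm1 CPM within a library was 0.301 ± 0.0499 in cKO cells and 0.337 ± 0.0381 in control cells (SD, n = 3 each). Rrm2b, the iron-holding subunit used outside S phase and named after its values were seen, had 15.5, 16.1 and 15.0 CPM in cKO replicates 1 to 3, against 14.7, 19.0 and 15.6 CPM in control replicates 1 to 3. Its log2 fold change was -0.08 ± 0.11 (SE), with overlapping groups. Per kilobase of coding transcript, Rrm2b stood at 3.41 ± 0.119 CPM in cKO and 3.60 ± 0.498 CPM in control cells (SD, n = 3 each), below Rrm2 at 10.4 ± 2.30 CPM in cKO and 10.9 ± 1.26 CPM in control cells.

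The other nucleotide genes did not pass. Tyms, the thymidylate synthase, had 6.31, 5.49 and 5.61 CPM in cKO replicates 1 to 3, against 4.57, 4.50 and 5.49 CPM in control replicates 1 to 3, with no overlap but equal values to the printed digits at the edge of the groups, and a log2 fold change of 0.26 ± 0.16 (SE, edgeR adjusted p = 0.433). Tk1, the thymidine kinase of S phase, was at 0.22 ± 0.12 and Dut, which removes dUTP from the nucleotide pool, at -0.02 ± 0.19 (log2 fold change ± SE). The sign of Dut depended on the scaling, the length correction and the library left out.

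Pcna was the most abundant member in both genotypes, and its clamp loader showed no common direction. Pcna had 105, 132 and 101 CPM in cKO replicates 1 to 3, against 102, 107 and 91.5 CPM in control replicates 1 to 3. The mean of cKO cells was set by replicate 2, and the other cKO libraries lay within the control range. Its log2 fold change was 0.17 ± 0.10 (SE, edgeR adjusted p = 0.42). Reads could be shared with processed copies of Pcna, of which Pcna-ps2 was counted at 1.25 ± 0.508 CPM in cKO and 1.04 ± 0.216 CPM in control cells (SD, n = 3 each). Among the loader subunits, Rfc1, Rfc3 and Rfc5 had positive and Rfc2 and Rfc4 negative log2 fold changes. Rfc4 had 2.48, 3.69 and 2.70 CPM in cKO replicates 1 to 3 and 3.63, 3.12 and 4.55 CPM in control replicates 1 to 3, at -0.35 ± 0.22 (SE). Rfc2, at -0.03 ± 0.06, turned positive when only library totals were used for scaling.

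For Okazaki fragment joining, Lig1, the replicative DNA ligase, had 18.0, 22.2 and 17.8 CPM in cKO replicates 1 to 3, against 16.1, 14.9 and 15.7 CPM in control replicates 1 to 3. The groups did not overlap, and the log2 fold change of 0.31 ± 0.11 (SE) did not pass (edgeR adjusted p = 0.16). Fen1, the flap nuclease that acts before it, was at 0.06 ± 0.10. Of the chromatin genes beside Uhrf1, the histone chaperone subunits Chaf1a and Chaf1b were at 0.09 ± 0.08 and 0.10 ± 0.11, and Slbp, which binds histone mRNA, at 0.04 ± 0.08 (log2 fold change ± SE). E2f1, the transcription factor of the group, had 24.1, 28.6 and 24.5 CPM in cKO and 24.3, 23.9 and 23.7 CPM in control replicates 1 to 3, a log2 fold change of 0.10 ± 0.09 (SE), with cKO replicate 2 above the other 5 libraries.

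Across the module, the libraries were ordered by more than genotype. The genotypes did not overlap for 7 members, all with cKO above (18.9%, against 11.1% of all genes tested), and for 0 members with cKO below, against 11.4% of all genes. These 7 were Mcm4, Mcm5, Mcm10, Pole, Lig1, Tyms and Uhrf1. The highest library was cKO replicate 2 for 22 members, another cKO library for 7 and a control library for 8, whereas the lowest was a control library for 30. Relative to the control mean, the mean log2 level over the 37 members was 0.08, 0.22 and 0.06 in cKO replicates 1 to 3 and -0.04, 0.02 and 0.02 in control replicates 1 to 3. Without cKO replicate 2 the median log2 fold change of the members was 0.066, against 0.104 with all libraries, and 27 members were positive.

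**Figure D3:**
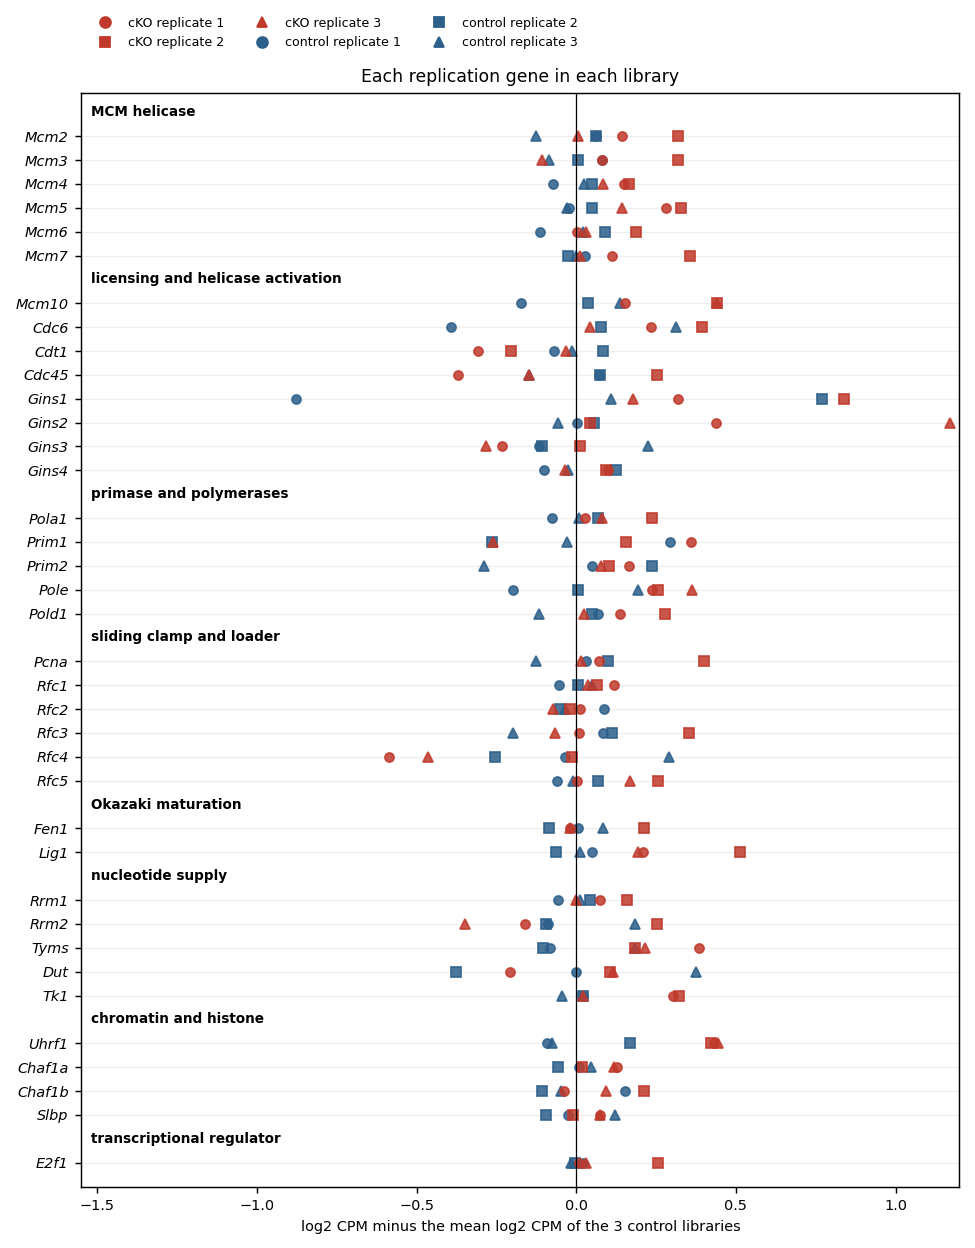
Log2 CPM of each member in each library relative to the mean of the 3 control libraries, grouped by role (red cKO, blue control; the symbol gives the replicate). Most red squares, cKO replicate 2, lie to the right. All 3 red symbols lie to the right of the blue ones for the 7 members whose groups do not overlap, except in Tyms. There cKO replicate 2 and control replicate 3 are drawn at the same point, both at 5.49 CPM as printed.

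Other genes of the pathway likewise showed few calls. Beside the lists that follow, the shares over all genes tested were 2.42% called, 17.2% with an unadjusted p below 0.05 and 50.4% with positive values. Of 16 further genes for origin licensing and firing, 0 rose and 0 fell, 3 had an unadjusted p below 0.05, and the median log2 fold change was 0.07. The smallest p-value there was that of Orc1, the largest subunit of the origin recognition complex, with 3.18, 2.63 and 3.10 CPM in cKO replicates 1 to 3, against 1.86, 1.57 and 2.06 CPM in control replicates 1 to 3. The groups of Orc1 did not overlap, and its log2 fold change of 0.70 ± 0.21 (SE) did not pass (edgeR adjusted p = 0.119). Wdhd1, which tethers polymerase alpha to the helicase, was at 0.30 ± 0.12 and Orc2 at -0.19 ± 0.08. Of 25 other fork and polymerase genes, 0 rose and 0 fell (3 at an unadjusted p below 0.05; median -0.01). Chtf18, part of an alternative clamp loader, was at 0.57 ± 0.20, and the small polymerase epsilon subunits Pole3 and Pole4 were both at -0.26, opposite in sign to Pole.

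In nucleotide supply, 1 of 22 further genes rose and 0 fell, with a median of -0.08. Values were positive for 6 and negative for 16. At an unadjusted p below 0.05 there were 1 positive and 2 negative genes. The gene that rose was Samhd1, whose product breaks down deoxynucleotides in non-dividing myeloid cells. It had 416, 408 and 415 CPM in cKO replicates 1 to 3, against 339, 359 and 340 CPM in control replicates 1 to 3. The groups did not overlap, and the log2 fold change was 0.25 ± 0.05 (SE, edgeR adjusted p = 0.0328). The call held without cKO replicate 3 (edgeR adjusted p = 0.0423) and was lost without any other library, at 0.0528 to 0.181. Among 15 genes of replication-coupled chromatin assembly, 0 rose and 0 fell (5 at an unadjusted p below 0.05; median 0.07). Hells, a chromatin remodeller, was at 0.36 ± 0.12, and the histone-binding genes Rbbp4 and Rbbp7 were at -0.16 ± 0.05 and -0.15 ± 0.06 (log2 fold change ± SE).

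The control of S phase entry showed no called change in the main edgeR fit. Of 25 tested genes of G1/S control, 0 rose and 0 fell in that fit (4 at an unadjusted p below 0.05; median 0.03). Ccna2, the cyclin of S phase and G2, had 28.8, 33.9 and 27.8 CPM in cKO and 21.8, 23.8 and 24.1 CPM in control replicates 1 to 3. Its groups did not overlap, and it just missed the threshold, at 0.38 ± 0.09 (SE, edgeR adjusted p = 0.0535). Over the alternatives its adjusted p ran from 0.00995, with DESeq2, to 0.187. Some edgeR alternatives called Ccna2 higher in cKO cells. Among them were scaling by library totals (edgeR adjusted p = 0.046) and a filter of 1 CPM in 3 libraries (0.0334). Others did not, such as leaving out control replicate 1 (edgeR adjusted p = 0.187). E2f7, a repressor of E2F targets, was at 0.44 ± 0.17 and Tfdp2, an E2F partner, at 0.20 ± 0.08. Of 11 CDK inhibitors and quiescence genes, 0 rose and 0 fell (3 at an unadjusted p below 0.05; median 0.02). Cdkn1a, which encodes the inhibitor p21, was at -0.23 ± 0.08, Cdkn1c at -0.48 ± 0.18 and the growth-arrest gene Gas1 at 0.79 ± 0.26 (log2 fold change ± SE).

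Among 25 genes of the replication checkpoint and fork repair, 20 had positive values, 0 rose and 0 fell, 3 had an unadjusted p below 0.05, and the median was 0.11. Fanca was at 0.55 ± 0.23 and Fancd2, like it a gene of the Fanconi anaemia pathway, at 0.39 ± 0.17 (log2 fold change ± SE). Other iron-dependent enzymes of DNA metabolism also held no call. Of 10 such genes, 8 had positive values, 2 had an unadjusted p below 0.05, and the median was 0.12. Rtel1, a telomere helicase, was at 0.29 ± 0.10, Dna2, a nuclease-helicase, at 0.26 ± 0.10 and Brip1, a BRCA1-bound helicase, at 0.27 ± 0.18. Of 8 genes for delivering iron-sulfur clusters to cytosolic and nuclear proteins, 7 had negative values, 0 rose and 0 fell, 2 had an unadjusted p below 0.05, and the median was -0.15. Nubp2, an assembly scaffold, was at -0.28 ± 0.09, and Ciao2a and Ciao2b, targeting factors, were at -0.27 ± 0.08 and -0.22 ± 0.12.

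Mitosis genes had larger differences than the replication genes, with 3 calls. Of 30 mitosis genes, 29 had positive values, 3 rose and 0 fell, 18 had an unadjusted p below 0.05, and the median log2 fold change was 0.31. Over all genes tested, 50.4% had positive values, 2.42% were called and 17.2% had an unadjusted p below 0.05. Whether the mitosis genes differ from the replication genes was not tested. Mki67, the Ki-67 proliferation antigen, had 143, 130 and 146 CPM in cKO replicates 1 to 3, against 89.8, 110 and 97.9 CPM in control replicates 1 to 3. The groups did not overlap, and the log2 fold change was 0.49 ± 0.08 (SE, edgeR adjusted p = 0.00753). Cenpf, a kinetochore protein, rose by 0.60 ± 0.13 and Foxm1, a transcription factor for mitotic genes, by 0.41 ± 0.09 (log2 ± SE, edgeR adjusted p = 0.0316 and 0.0433). Single libraries mattered here too: without control replicate 1 or 3 or cKO replicate 1, none of the 30 was called, and the edgeR adjusted p of Mki67 was then 0.0521, 0.0545 and 0.0815. Without cKO replicate 2, Mki67 alone was called. Foxm1 was called without cKO replicate 3 (0.0404) and with no other library left out, and Cenpf without control replicate 2 (0.0178) or cKO replicate 3 (0.0365). DESeq2 called 9 of the 30. The mean over the list was 0.32, 0.35 and 0.27 in cKO replicates 1 to 3 and -0.08, 0.05 and 0.03 in control replicates 1 to 3, without the excess of cKO replicate 2 seen for the replication genes.

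**Figure D4:**
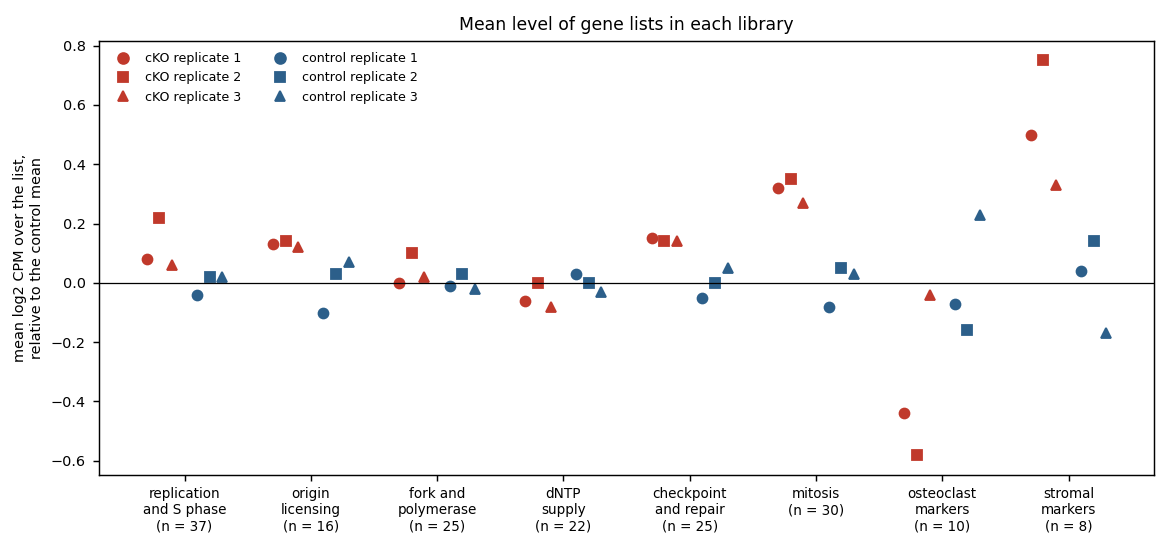
Mean log2 CPM of each gene list in each library, relative to the mean of the 3 control libraries (cKO red and left, control blue and right within each list; n is the number of genes tested). For the 37 replication genes cKO replicate 2 stands alone at 0.22, for mitosis the 3 cKO libraries lie at 0.27 to 0.35, and for stromal markers cKO replicate 2 is again the highest.

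The labels and the makeup of the cultures were checked in the same libraries. Slc11a2 had 78.3, 82.8 and 87.4 CPM in cKO replicates 1 to 3, against 119, 110 and 118 CPM in control replicates 1 to 3. Its log2 fold change was -0.48 ± 0.06 (SE, edgeR adjusted p = 0.00219), so its RNA was reduced but not absent in cKO cultures. How completely the alleles were deleted was not tested. Lyz2, the site of the Cre insertion, was lower in every cKO library. Of 7 macrophage markers, 3 had positive and 4 negative values and 0 were called in the main edgeR fit. Their summed levels were 6276 to 6787 CPM in cKO and 6488 to 7015 CPM in control libraries. Csf1r, the M-CSF receptor, averaged 2411 CPM in cKO and 2497 CPM in control cells. Mertk, a receptor for apoptotic cells, had the smallest p-value of the list, with means of 176 CPM in cKO and 149 CPM in control cells, and was called by DESeq2. The summed level of 10 osteoclast markers was 8535 to 12212 CPM in cKO and 11787 to 15309 CPM in control libraries. None of these 10 markers was called in the main edgeR fit, and all 10 had negative values. With all libraries, limma with voom and sample weights called 1 of the 10 lower in cKO cells. Without cKO replicate 3, 6 of the 10 were called lower in cKO cells, and without any other single library 0 were. Relative to the control mean, their average log2 level was -0.44, -0.58 and -0.04 in cKO replicates 1 to 3 and -0.07, -0.16 and 0.23 in control replicates 1 to 3. The highest replication level and the lowest osteoclast markers were both in cKO replicate 2. Between cKO replicates 1 and 3 the osteoclast markers differed, while the replication levels were similar, at 0.08 and 0.06. A link between the lists was not tested. Markers of stroma were abundant, at a summed 3227 to 5172 CPM in cKO and 3422 to 3995 CPM in control libraries, most of it Col1a1 and Col1a2. None of the 8 stromal markers was called in the main edgeR fit, and all 8 had positive values. Without cKO replicate 3, 2 of the 8 were called higher in cKO cells. With all libraries, DESeq2 also called 2 and limma with voom and sample weights 1. Their mean log2 level relative to control was 0.50, 0.75 and 0.33 in cKO replicates 1 to 3 and 0.04, 0.14 and -0.17 in control replicates 1 to 3. Of 7 tested markers of neutrophils and their precursors, 4 rose, Ngp, Ltf, S100a9 and S100a8, with summed levels over 9 genes of 47.1 to 60.5 CPM in cKO and 21.1 to 26.5 CPM in control libraries. The call of S100a8 held without cKO replicate 3 and was lost without any other library (edgeR adjusted p = 0.0758 to 0.186), while the other 3 were called with any library left out. The early granulocyte genes went the other way at low levels: Mpo averaged 0.479 CPM in cKO and 0.842 CPM in control cells, Prtn3 0.124 CPM in cKO and 0.343 CPM in control cells, and neither was called. Elane and Ctsg were too low to be tested. Summed markers of erythroid cells were at 0.901 to 1.43 CPM in cKO and 0.68 to 1.02 CPM in control libraries, and those of T and NK cells at 0.278 to 0.582 CPM in cKO and 0.401 to 0.698 CPM in control libraries. The B cell list summed to 13.0 to 14.7 CPM in cKO and 11.8 to 14.1 CPM in control libraries, nearly all of it Ebf1, which stroma also expresses, and the list of progenitor markers stayed at 2.62 to 3.11 CPM in cKO and 2.38 to 3.31 CPM in control libraries. The part that shifts in these cells play in the values of Uhrf1 and the other members was not tested.

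Between genes, levels were compared per kilobase of the longest coding transcript, with the authors' FPKM beside it for some genes. On that scale Pcna stood highest, at 74.3 ± 11.0 CPM in cKO and 65.9 ± 5.14 CPM in control cells (SD, n = 3 each). Rrm1 came next, at 18.8 ± 1.04 CPM in cKO and 17.8 ± 0.624 CPM in control cells. Mcm6 followed at 15.7 ± 1.11 CPM in cKO and 14.9 ± 1.06 CPM in control cells, and Slbp at 14.3 ± 0.501 CPM in cKO and 13.8 ± 1.07 CPM in control cells. The mean ± SD ranges of Mcm6 and Slbp overlapped in both genotypes. The order below Pcna depends on the length used. For Rrm1 the authors' FPKM imply 12706 bases, against 3997 in the longest coding transcript. Over 9498 genes, the implied length was a median 1.154 times that of the merged exons in GENCODE M21, so implied lengths run high. By FPKM, Rrm1 averaged 5.94 in cKO and 5.58 in control cells, and Slbp 3.88 and 3.74. Both were then below Mcm6, at 12.7 in cKO and 12 in control cells. The lowest were Cdc6, at 0.995 ± 0.120 CPM in cKO and 0.865 ± 0.206 CPM in control cells, and Mcm10, at 1.42 ± 0.157 CPM in cKO and 1.12 ± 0.119 CPM in control cells.

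Some member counts may hold reads of neighbours, because no source says whether counting used the strand that the libraries record. Of the 37 members, 10 overlap a tested gene on the opposite strand: Mcm7, Cdc45, Gins2, Rfc2, Rfc4, Rfc5, Fen1, Lig1, Tk1 and Chaf1a. Rfc4, with a mean of 184 reads per library, overlaps the far more abundant Eif4a2 over 175 bases. Chaf1b, with a mean of 859 reads, overlaps the tested gene Gm49617 (62.2 reads) over 1414 bases. Both lie on the same strand, so the strand cannot separate their reads. Uhrf1, Mcm5, Rrm2 and Pcna overlap no other row of the files.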

How the data were processed

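Polyadenylated RNA was sequenced in 3 cKO and 3 control libraries, made by the dUTP method, per the labels' protocols. The submitters' processing notes name cutadapt 1.9 and mm10. No source used here names the aligner, the counter, its strand setting or the annotation release. Each deposited file gives a read count for every gene, per the file headers, and FPKM values computed by the authors. The FPKM values were used for the gene length they imply and for some comparisons of level between genes. Total counts were 49720701 to 57797282 per library, so 1 read was 0.0173 to 0.0201 CPM, and no row named anything but a gene. Counts were tested with edgeR 4.0.16 (R 4.3.3): filterByExpr (min.count 10, min.total.count 15), TMM scaling, and a robust quasi-likelihood F test of cKO against control over all 6 libraries, with Benjamini-Hochberg adjustment over all 16843 genes; calls have an adjusted p below 0.05. Standard errors are the log2 fold change divided by the square root of F, and 95% intervals use the fit's degrees of freedom. The procedure was tested on simulated data. The members and gene lists were chosen with earlier results of these data known. All 37 members passed the filter and are named; from other lists, genes that passed, or else up to 3 of smallest p-value, were named; 1 such gene is not reported here. No set test was run. No library looked like a copy of another: the chi-square per degree of freedom between libraries of 1 genotype was 16.2 to 36.2. Promoters came from RefSeq (GRCm38.p6) and coding transcripts from GENCODE M21. Alternatives were other scalings and filters, DESeq2 1.42.0, limma 3.58.1 with voom and sample weights, each library left out, a replicate block, and removal of the trend over gene length.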

Additional observations from a re-analysis of the deposited data

How the results depend on the processing

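Over the 15 alternatives, 531 of 555 member results kept their direction and side of the threshold. Most of these were uncalled in the main fit and stayed so. Uhrf1 alone had a call to lose, and it was called in 10 of the 15 alternatives. The members' median, 0.104 with all libraries, was positive in each alternative, at 0.066 without cKO replicate 2 to 0.151 without cKO replicate 1 when single libraries were left out. The number of members called was 0 to 1 with a library left out. All genes called numbered 407 in the main fit, 874 with DESeq2, and 59 to 624 with a library left out, fewest without cKO replicate 1 and most without cKO replicate 3. The cause was not tested. Of the same-numbered libraries, those of replicate 3 deviated together and the others did not clearly do so (correlations of -0.0765, 0.0496 and 0.262 for replicates 1 to 3 across 9454 genes), so the numbers were not taken as pairs. With the replicate number as a block, 673 genes were called, among them 8 of 10 osteoclast and 3 of 8 stromal markers, and with block and length trend removal 742, of which 2 were members, Uhrf1 and Pcna (adjusted p = 0.0187). Over all alternatives the sign turned in 10 members. Dut was 0.01 with library totals, 0.0021 with the block, 0.06 with the length trend removed and 0.09 with both, and Rfc2 was 0.0017 with library totals. With a library left out, log2 fold changes ran from -0.01 to 0.20 for Mcm3, -0.26 to 0.07 for Cdc45, -0.05 to 0.25 for Prim1, -0.02 to 0.22 for Prim2, -0.06 to 0.02 for Rfc2, -0.04 to 0.19 for Rfc3, -0.02 to 0.11 for Fen1, -0.26 to 0.05 for Rrm2, -0.19 to 0.19 for Dut, -0.01 to 0.11 for Slbp, and, outside the members, -0.11 to 0.02 for Csf1r. Gins1 had the fewest reads and the widest interval of the members.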
